A study of Mus musculus with 12 samples.

Results

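The interaction of genotype and diet was examined in mouse liver, that is, whether a high-cholesterol diet altered gene expression by a different amount in Lats2-CKO mice than in wild-type mice. For each gene, the difference between the high-cholesterol and the normal diet in wild type was subtracted from the same difference in Lats2-CKO, on the log2 scale. A positive value therefore means that the diet difference was higher in Lats2-CKO, and a value of 1 is a 2-fold disparity between the diet ratios of the genotypes. All 12 arrays of the series entered the contrast, 3 in each of 4 groups, and 22180 genes were tested.

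The groups were wild-type and Lats2-CKO males that were 8 weeks old when the feeding began. Each genotype received for 9 weeks either a normal chow with no cholesterol or a diet with 1.25% cholesterol. The latter is titled high-cholesterol (Paigen) diet, and is written here as the high-cholesterol diet or as on cholesterol. The part of cholesterol itself, as against other components of that diet, was not tested. The labels also name the mutant line Lats2-KO, and they give neither the Cre driver, nor the cells in which the gene was deleted, nor the deleted exons. Replicates are numbered as biological, with 1 array each, so p-values measure the spread between these livers.

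LATS2 is a kinase of the Hippo pathway that phosphorylates the coactivators YAP and TAZ and thereby keeps them from their TEAD partners in the nucleus; it has also been reported to restrain SREBP, the factor that drives genes of cholesterol synthesis. Dietary cholesterol holds SREBP2 in the endoplasmic reticulum, which lowers the synthesis genes, while oxysterols made from it activate LXR, which raises sterol exporters such as Abcg5 and Abcg8. An interaction asks whether these responses to the diet depend on LATS2.

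The third wild-type normal-diet array stood apart from its group and is therefore treated separately throughout. Its mean correlation with the other arrays of its group was 0.981, against 0.987 with the wild-type high-cholesterol arrays, and its nearest array was the third Lats2-CKO high-cholesterol array. Squalene epoxidase (Sqle), a SREBP target, read 2.55 on it, against 7.97 and 7.0 on the other wild-type normal-diet arrays and 2.81 to 2.88 in wild type after the high-cholesterol diet. The Sqle reading goes against the diet in its label, but not every gene did so. Acot2 read 8.43 on it, against 8.15 and 8.25 on the other wild-type normal-diet arrays and 6.42 to 6.85 in wild type on cholesterol. Fitm2 read 8.78 on it, against 8.79 and 8.59 and then 7.88 to 8.01. Acot2 and Fitm2 were picked here after their values were seen. Whether the label is right was not tested, the array is called by its label here, and values from 12 arrays rest on that label. Most interactions are given with all 12 arrays and with the 11 arrays that remain without it. The arrays also formed 2 sets of 6 by their medians, 3.469 to 3.495 and 3.418 to 3.43, split alike between the genotypes within each diet. Without the third array all remaining wild-type normal-diet arrays lay in the higher set, so the 11-array contrast is not balanced over the sets. The labelled tissue was borne out by hepatocyte markers, 9 of 9 of which were above the 30th percentile of all values, 3.04, with a mean level of 11.12 to 11.32 per array. Exocrine pancreas markers stayed at 2.86 to 3.08 and erythroid markers at 2.87 to 3.35, close to that percentile.

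With 12 arrays, 1 gene passed an adjusted p of 0.05 in limma, the calpain gene Capn8, which is 0.00451% of the genes tested. With 11 arrays, 2 genes passed, Capn8 and the cytochrome P450 gene Cyp2b9, or 0.00902%. All of these interactions were negative. At an unadjusted p under 0.05 the contrast held 1247 genes with 12 arrays (5.62%; 747 positive and 500 negative), against 1109 that would be reached if no gene had an interaction. With 11 arrays it held 1576 genes (7.11%; 950 positive and 626 negative). Both sets shared 913 genes with the same sign. The contrast uses 4 group means of 3 arrays, and its median 95% confidence interval reached 0.437 to either side with 12 arrays and 0.452 with 11. The interval lay wholly within a 2-fold disparity for 18288 genes (82.5%) with 12 arrays and for 17929 genes (80.8%) with 11. That share covers genes at all levels, and it differed between the gene lists described below. With 12 arrays it was 5 of 17 cholesterol synthesis genes, 10 of 28 endoplasmic reticulum genes and 3 of 16 heat shock genes. It was 17 of 20 Hippo pathway genes. With 11 arrays the counts of these lists were 5, 14, 7 and 18. Interactions beyond 2-fold are thus not excluded for most cholesterol synthesis and heat shock genes in either fit. The same holds for most endoplasmic reticulum genes with 12 arrays only.

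Capn8 encodes a calcium-dependent cysteine protease best known from the stomach lining. In Lats2-CKO mice on the normal diet it read 6.40, 6.66 and 6.14, and on the high-cholesterol diet 3.31, 3.08 and 3.37. In wild type it read 3.71, 3.58 and 3.23 on the normal diet and 2.90, 3.15 and 3.15 on cholesterol. The Lats2-CKO normal-diet livers alone were high, with no overlap with any other group, and the remaining 9 arrays lay from 2.90 to 3.71, around the array medians of 3.418 to 3.495. The diet difference was -3.14 in Lats2-CKO and -0.44 in wild type, an interaction of -2.70 ± 0.23 (SE; limma adjusted p = 0.00293). No fold is given, since the values used here carry no detection call that tells a low level from background. Without the third wild-type normal-diet array it was -2.56 ± 0.21 (limma adjusted p = 0.00617). Within the higher and the lower array set it was -2.47 and -2.83. Capn8 kept its call in every leave-one-out fit of 12 arrays and lost it, among the 12-array alternatives, only with no moderation of the variance (adjusted p = 0.0792 from limma's fit without eBayes). With 11 arrays its call was lost there too (adjusted p = 0.189), and in 1 further alternative given in the closing section.

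The 200 bases before the RefSeq start of Capn8 are shown because Capn8 was the gene that passed in both fits. They lie on the plus strand of GRCm38.p6 at chr1:182564807-182565006, upstream of the gene. The TEAD motif GGAATG was searched on both strands and would be printed in capitals; these letters were not in this stretch. Over the 32851 RefSeq promoter windows of 300 bases, 14.7% held the motif.
Capn8: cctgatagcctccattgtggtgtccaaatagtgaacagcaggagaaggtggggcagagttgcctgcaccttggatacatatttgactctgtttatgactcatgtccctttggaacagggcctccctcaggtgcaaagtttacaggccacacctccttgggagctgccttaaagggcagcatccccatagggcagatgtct

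Other genes with negative interactions had the pattern of Capn8, with the Lats2-CKO normal-diet livers high. Zfand4, which encodes a zinc finger protein with an AN1 domain, read 6.56, 6.61 and 6.99 in Lats2-CKO on the normal diet. The other 9 arrays lay between 4.83 and 5.33, so the Lats2-CKO normal-diet livers again stood alone. Its interaction was -1.62 ± 0.20 with 12 arrays (limma adjusted p = 0.072) and -1.56 ± 0.22 with 11 (adjusted p = 0.103), which did not pass. The clone-named gene E030018B13Rik, chosen after its values were seen because it had the next smallest p, read 7.24, 6.53 and 6.0 in Lats2-CKO on the normal diet and 2.95 to 3.76 on the other 9 arrays. Its interaction was -3.08 ± 0.40 (limma adjusted p = 0.0806), and -2.84 ± 0.39 without the third wild-type normal-diet array (adjusted p = 0.103). It did not pass in either fit as planned. In both fits it passed in some alternatives, among them a trended and robust prior and the fit without Lats2-CKO normal-diet replicate 3. Usp14, a deubiquitinase bound to the proteasome, read 9.15 to 9.34 in Lats2-CKO on the normal diet and 8.38 to 8.69 elsewhere. Taf2, a subunit of the general transcription factor TFIID, read 8.03 to 8.54 there and 7.17 to 7.88 elsewhere. Fam3c, a secreted cytokine-like protein, read 7.56, 7.65 and 7.73 there and 6.94 to 7.54 elsewhere. The interactions of these 3 genes were -0.78, -1.19 and -0.79 with 12 arrays, none of which passed (limma adjusted p = 0.602 each). With 11 arrays they were -0.68, -1.23 and -0.81, and again none passed (limma adjusted p = 0.287, 0.353 and 0.353).

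Genes with the leading positive interactions were mostly those with low values in the Lats2-CKO normal-diet group, and none of them passed. Klb encodes beta-Klotho, the coreceptor through which FGF15 and FGF21 signal in liver and through which bile acid synthesis is restrained. It read 7.84, 7.79 and 7.87 in Lats2-CKO on the normal diet and 9.07, 8.87 and 9.07 on cholesterol. Wild-type livers read 8.63, 8.57 and 9.05 on the normal diet and 8.66, 9.07 and 8.95 on cholesterol. The Lats2-CKO normal-diet livers were thus below all others, and the interaction was 1.03 ± 0.20 with 12 arrays (limma adjusted p = 0.602) and 0.88 ± 0.17 with 11 (adjusted p = 0.317). Wdtc1, an adaptor of a CUL4 ubiquitin ligase that restrains fat formation, read 7.07, 7.42 and 7.03 in Lats2-CKO on the normal diet and 7.78 to 8.45 on all other arrays. Tfcp2l1, a transcription factor of epithelia, read 4.29 to 5.13 in that group against 5.44 to 5.89 after the high-cholesterol diet, while wild type read 5.51 to 5.67 and then 4.75 to 5.34. Gabbr2, a subunit of the GABA-B receptor, read 6.42 to 6.55 and then 6.99 to 7.67 in Lats2-CKO, while wild type read 7.04 to 7.49 and then 6.58 to 7.0. Spon2, a secreted matrix protein of innate immunity, was opposite between the genotypes. In wild type it read 5.22, 4.58 and 4.29 on the normal diet and 3.84, 3.67 and 4.08 on cholesterol, whereas in Lats2-CKO it read 3.82, 3.39 and 3.77 and then 4.31, 4.82 and 4.62. Its interaction was 1.76 ± 0.32 with 12 arrays and 1.96 ± 0.30 with 11 (limma adjusted p = 0.602 and 0.146).

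**Figure D1:**
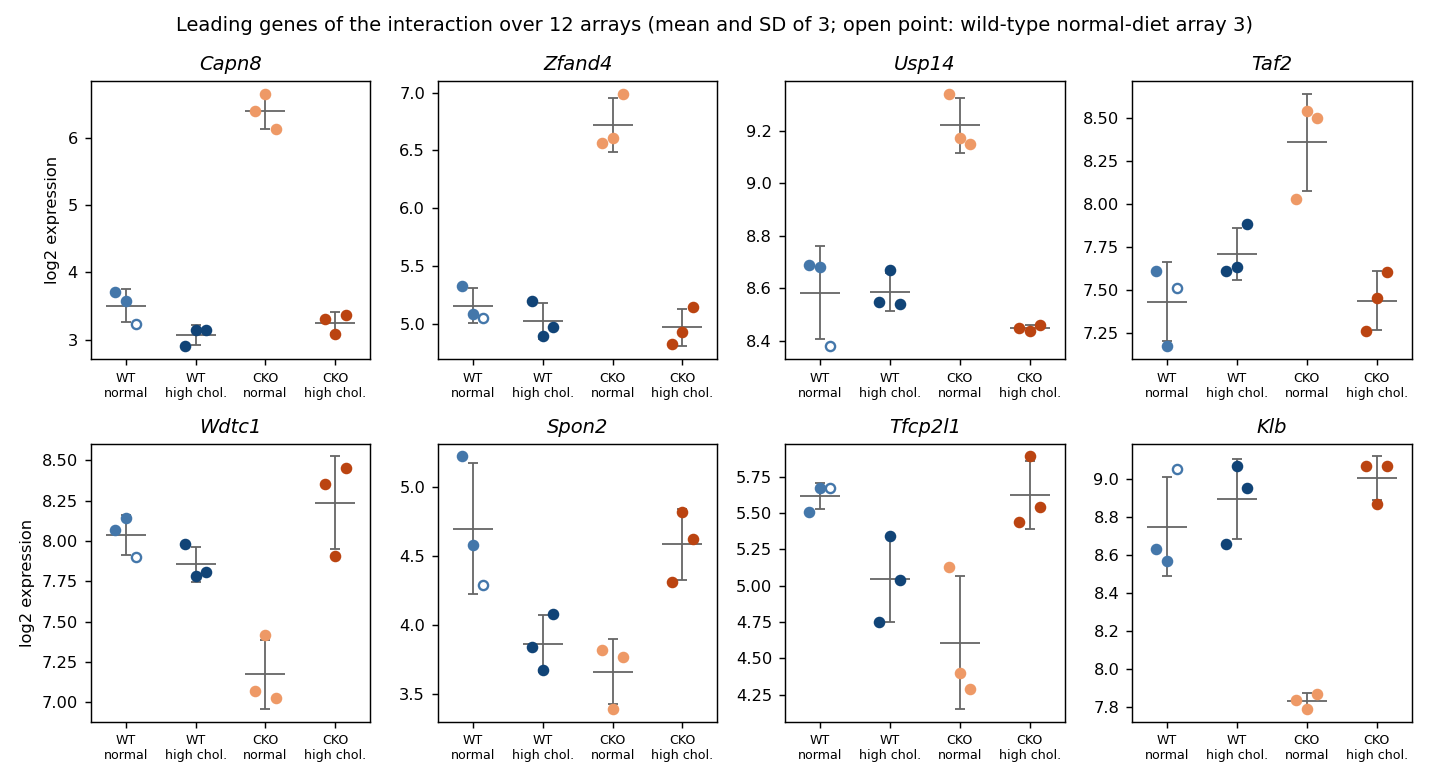
Log2 expression (y axis) of 8 leading genes in the 4 groups (x axis); points are arrays, the open point is the third wild-type normal-diet array, and bars are the mean and SD of 3. For Capn8 and Zfand4 the 3 Lats2-CKO normal-diet arrays sit above the other 9, and for Klb and Wdtc1 below them.

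The group that set the contrast depended on the third array. Among the 100 genes with the smallest p over 12 arrays, the Lats2-CKO normal-diet mean lay farthest from the other 3 for 68 genes and the wild-type normal-diet mean for 22. With 11 arrays the wild-type normal-diet mean lay farthest for 67 of 100 and the Lats2-CKO normal-diet mean for 29. In both fits the 2 high-cholesterol groups together accounted for few, 6 and 4 genes with 12 arrays and 2 and 2 with 11. Over all genes the Lats2-CKO normal-diet mean was farthest for 7725 of 22180 with 12 arrays, and the wild-type normal-diet mean for 7509 with 11. The Lats2-CKO and wild-type high-cholesterol means were farthest for 4071 and 5120 of all genes with 12 arrays. With 11 arrays they were farthest for 3758 and 4856. The lists of 100 had 41 genes in common. These counts come from the values that ranked the genes and are given as a description. The 9 diet differences of Lats2-CKO lay wholly above or below those of wild type for 504 genes (2.27%) with 12 arrays and for 1210 genes (5.46%) with 11, where there are fewer wild-type differences to clear. All 10 genes that led with 12 arrays were among the 504.

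**Figure D2:**
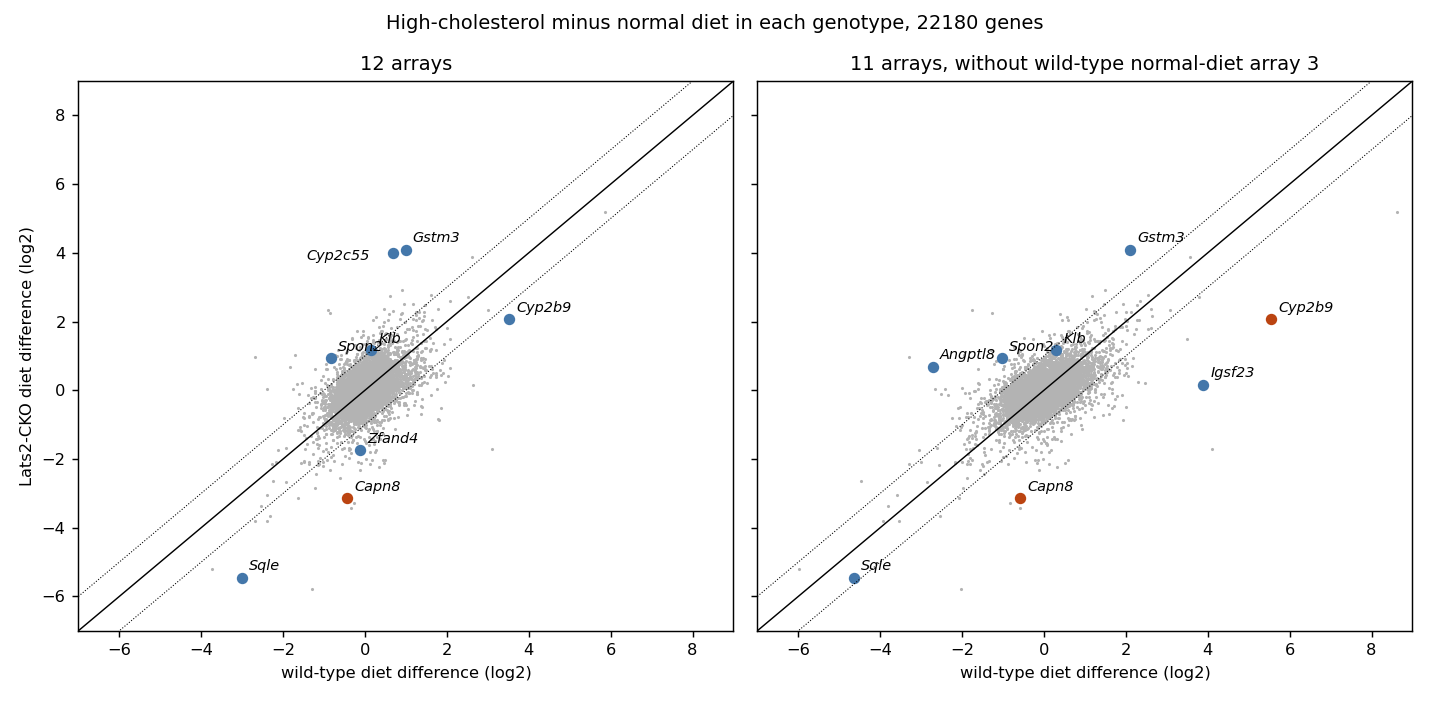
Difference between the high-cholesterol and normal diet in wild type (x axis, log2) against Lats2-CKO (y axis, log2) for 22180 genes, with 12 arrays on the left and 11 on the right. The solid line marks equal differences and the dotted lines a 2-fold disparity; orange genes passed limma at 0.05. Capn8 lies below the line in both panels, and Cyp2b9 moves from 3.51 to 5.55 on the x axis.

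Cyp2b9, a cytochrome P450 of xenobiotic metabolism, was called with 11 arrays and not with 12. In wild type it read 4.08, 4.20 and 10.24 on the normal diet and 9.40, 10.15 and 9.50 on cholesterol. In Lats2-CKO it read 8.16, 8.23 and 7.83 on the normal diet and 10.69, 9.73 and 9.97 on cholesterol. The third wild-type normal-diet array lay among the high-cholesterol arrays, and without it the wild-type normal-diet level was the lowest of the groups. The interaction was -1.45 ± 1.77 with 12 arrays (limma adjusted p = 0.982) and -3.49 ± 0.39 with 11 (limma adjusted p = 0.0421). Within the array sets it was -2.77 in the higher and 2.44 in the lower, where the third array is the only wild-type normal-diet array. The call was lost in 9 of the 11 fits that left out a further array, and over all 11 the interaction ran from -3.76 to -3.25 (limma adjusted p from 0.0175 to 0.167). It was also lost with the array set as a block (-3.57, limma adjusted p = 0.0723) and with no moderation (adjusted p = 0.393). Cyp2b genes are close in sequence, so probes may be shared and the gene's level is uncertain. Cyp2b9 was also in a list of female-biased liver genes, although the animals were male. Relative to its mean over arrays, that list was 0.33 on the third wild-type normal-diet array, against -0.58 and -0.38 on the others of its group. A list of male-biased genes was -0.26 there, against 0.54 and 0.41. The part of sex-biased expression in the call was not tested.

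Other genes that led with 11 arrays also had a value on the third wild-type normal-diet array that lay close to the high-cholesterol values, and none passed in either fit as planned. In alternatives of the 11-array fit, Angptl8 passed with a trended prior (limma adjusted p = 0.0151) and without Lats2-CKO normal-diet replicate 1 (0.0361). Nudt18 passed in both of these (0.0438 and 0.0203) and with array weights (0.0464). Angptl8 encodes a feeding-induced inhibitor of lipoprotein lipase. In wild type it read 10.17, 10.28 and 7.61 on the normal diet and 7.64, 6.90 and 8.00 on cholesterol, while in Lats2-CKO it read 8.38, 7.53 and 7.91 and then 8.61, 8.96 and 8.31. Its interaction was 2.52 ± 0.84 with 12 arrays and 3.40 ± 0.44 with 11 (limma adjusted p = 0.752 and 0.0797). Igsf23, an immunoglobulin-domain membrane protein, read 4.94, 4.54 and 8.47 in wild type on the normal diet and 7.89 to 9.03 after the high-cholesterol diet, against 7.62 to 8.88 and 8.02 to 8.49 in Lats2-CKO. Klhl24, an adaptor of a CUL3 ubiquitin ligase, read 7.75, 7.64 and 9.38 in wild type on the normal diet and 9.44 to 9.56 on the high-cholesterol diet. In Lats2-CKO it read 8.53 to 8.70 and then 9.07 to 9.40, a smaller difference than in wild type without the third array. Nudt18, a hydrolase of oxidised nucleotides, read 6.41, 6.87 and 5.67 in wild type on the normal diet and 5.53 to 5.76 on the high-cholesterol diet, and 5.22 to 5.84 and then 6.41 to 6.69 in Lats2-CKO. Its interaction was 1.69 ± 0.36 with 12 arrays and 2.01 ± 0.25 with 11 (limma adjusted p = 0.71 and 0.0797). Proser2 had interactions of 1.23 and 1.42, and Tmem242, an assembly factor of ATP synthase, of 0.73 and 1.08.

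**Figure D3:**
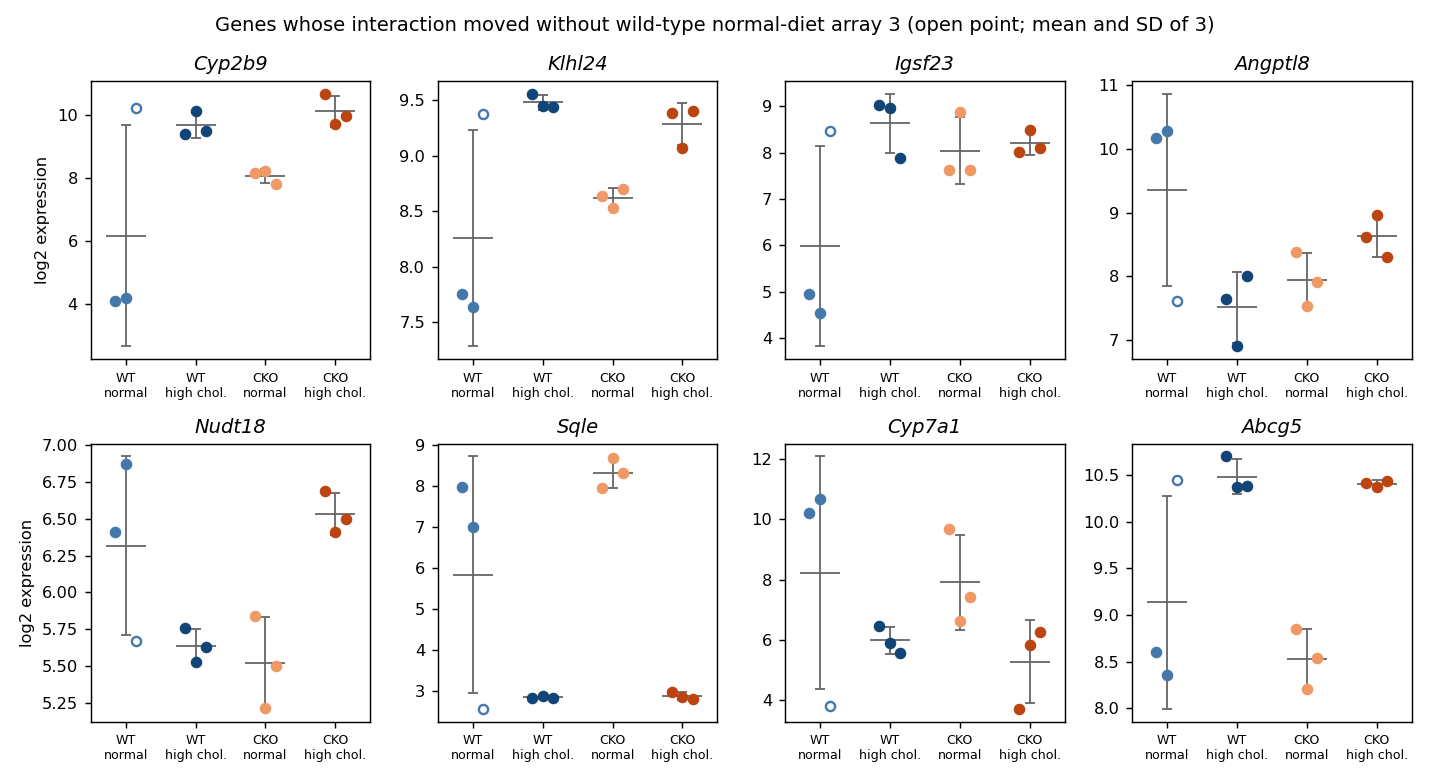
Log2 expression (y axis) of 8 genes in the 4 groups (x axis); points are arrays, the open point is the third wild-type normal-diet array, and bars are the mean and SD of 3. In each panel the open point lies nearer to the wild-type high-cholesterol arrays than to the other wild-type normal-diet arrays.

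The cholesterol synthesis enzymes, which were lower on the high-cholesterol diet in both genotypes for 15 of 17 measured members, showed no called interaction. Their median diet difference was -0.83 in wild type and -1.10 in Lats2-CKO with 12 arrays, and -1.07 in wild type with 11. The median interaction was -0.21 with 12 arrays and -0.01 with 11, beside 0.0041 and 0.013 over all genes. Sqle, which makes squalene epoxide, read 7.96, 8.70 and 8.32 in Lats2-CKO on the normal diet and 2.98, 2.85 and 2.79 on cholesterol. Its interaction was -2.45 ± 1.44 with 12 arrays and -0.81 ± 0.35 with 11 (limma adjusted p = 0.931 and 0.682). The difference between these values comes from the third wild-type normal-diet array alone, given above. Farnesyl diphosphate synthase (Fdps) turned from -0.74 to 0.17, and lanosterol demethylase (Cyp51) was -1.51 and -1.06. Members with unadjusted p under 0.05 were 1 positive and 2 negative with 12 arrays, and 2 positive and 1 negative with 11, beside 5.62% and 7.11% of all genes. Among the regulators, Srebf2 had an interaction of -0.03 ± 0.51 and 0.35 ± 0.43, Srebf1 of 0.30 ± 0.66 and -0.02 ± 0.66, and Insig1, which holds SREBP in the endoplasmic reticulum, of -0.33 ± 0.52 and -0.12 ± 0.54. None passed, and intervals of this width include differences of 2-fold.

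Sterol export and bile acid genes likewise had no called member. Abcg5, which forms a sterol exporter with Abcg8, read 8.60, 8.36 and 10.45 in wild type on the normal diet and 8.85, 8.21 and 8.54 in Lats2-CKO. After the high-cholesterol diet it read 10.37 to 10.70 in wild type and 10.37 to 10.44 in Lats2-CKO, so the high-cholesterol groups overlapped. Its interaction was 0.54 ± 0.60 with 12 arrays and -0.12 ± 0.24 with 11. The median over 11 LXR targets was 0.09 with 12 arrays and -0.40 with 11. Cyp7a1 catalyses the first and limiting step from cholesterol to bile acids. It read 10.23, 10.69 and 3.80 in wild type on the normal diet and 9.68, 6.64 and 7.42 in Lats2-CKO. Its interaction was -0.39 ± 2.18 and, without the third array, 1.83 ± 1.18, with spreads too wide to tell the genotypes apart. Of 25 bile acid genes, 5 positive and 0 negative members had an unadjusted p under 0.05 with 12 arrays, and 3 and 1 with 11, where 5.62% and 7.11% of all genes did. They included, with 12 arrays, Klb, the export pump Abcc3 (0.95 and 0.68 in the 2 fits), and Nr0b2, also called SHP (1.15 and 0.83).

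The endoplasmic reticulum chaperones and genes of the unfolded protein response were lower on the high-cholesterol diet in both genotypes for 23 of 28 measured members with 12 arrays and 24 with 11. Hspa5, the main chaperone of that compartment, read 10.47, 10.53 and 8.98 in wild type on the normal diet and 10.08, 10.23 and 10.04 in Lats2-CKO. On the high-cholesterol diet it read 8.65, 8.82 and 9.01 in wild type and 8.73, 9.04 and 8.85 in Lats2-CKO. The third wild-type normal-diet array again read like the high-cholesterol arrays, and the interaction was -0.08 ± 0.46 with 12 arrays and 0.43 ± 0.18 with 11 (limma adjusted p = 0.994 and 0.65). Sdf2l1, a chaperone cofactor, read 10.36, 10.22 and 6.50 in wild type on the normal diet, and its interaction turned from -0.84 to 0.42. Creld2, a disulfide isomerase, read 11.38, 11.42 and 7.83 there, and its interaction turned from -0.66 to 0.53. The list median was -0.22 with 12 arrays and 0.03 with 11, and no member was called.

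Promoter stretches were taken because members of this list were low on the same arrays. Those before Hspa5 and Pdia6, a protein disulfide isomerase, are shown because they hold the element named next. The stretches taken before Sdf2l1 and Dnajb11, also members of the list, did not hold it and are not shown. The endoplasmic reticulum stress response element (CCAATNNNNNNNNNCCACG, both strands) is in capitals. It occurred in 9 of the 24 measured list genes that matched a RefSeq promoter window and in 0.119% of all windows. The printed stretches are the 200 bases upstream of the start on the plus strand, at chr2:34771890-34772089 and chr12:17266389-17266588 of GRCm38.p6. A match is a description of the letters only.
Hspa5: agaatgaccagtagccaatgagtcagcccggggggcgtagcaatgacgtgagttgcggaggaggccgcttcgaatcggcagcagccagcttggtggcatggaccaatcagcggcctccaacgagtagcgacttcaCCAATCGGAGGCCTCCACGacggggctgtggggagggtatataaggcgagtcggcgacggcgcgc
Pdia6: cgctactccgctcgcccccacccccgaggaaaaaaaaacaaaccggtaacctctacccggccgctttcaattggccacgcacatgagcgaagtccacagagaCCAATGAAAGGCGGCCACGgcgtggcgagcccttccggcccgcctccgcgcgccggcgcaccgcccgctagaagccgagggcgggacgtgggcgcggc

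**Figure D4:**
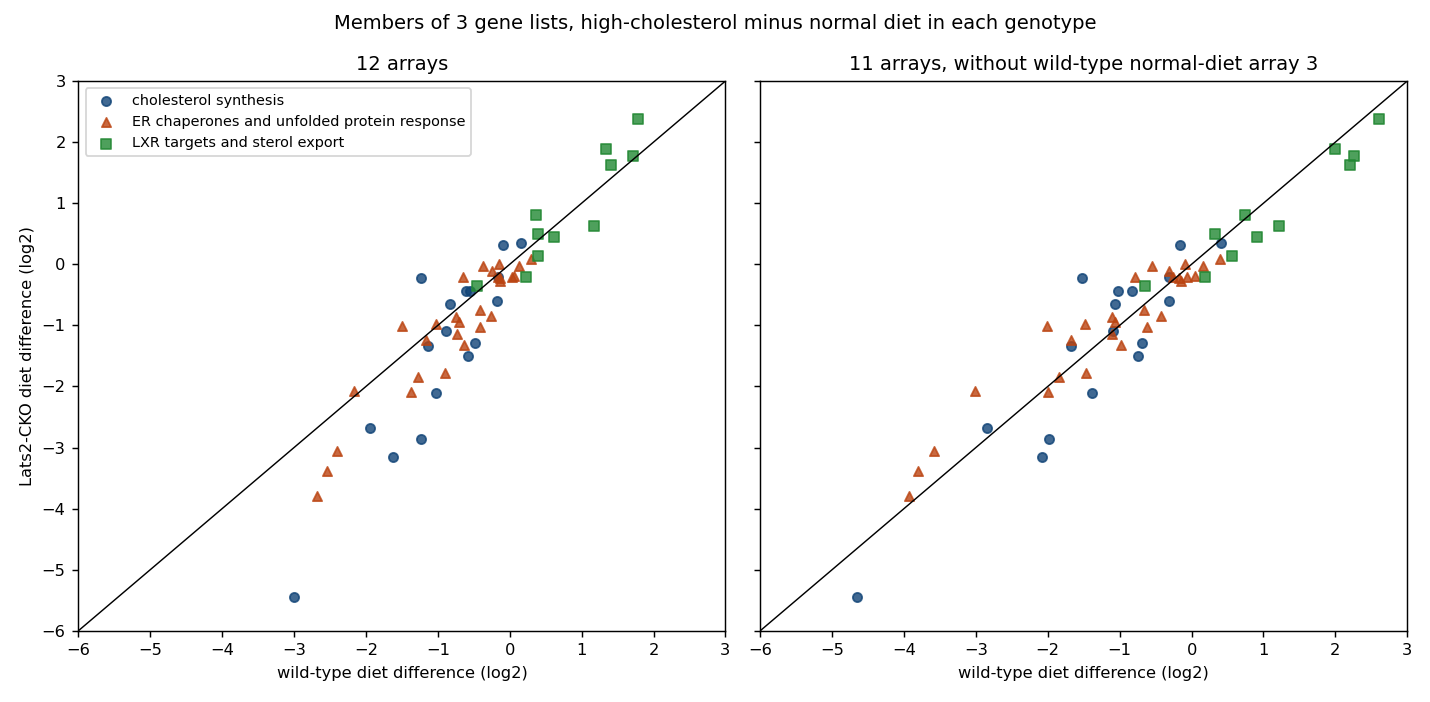
Diet difference (log2) in wild type (x axis) against Lats2-CKO (y axis) for the measured members of 3 gene lists, with 12 arrays on the left and 11 on the right; the line marks equal differences. Without the third wild-type normal-diet array the points move to larger wild-type differences, and the median interaction of the endoplasmic reticulum list goes from -0.22 to 0.03.

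Detoxification genes were among the lists with the highest median interaction with 12 arrays, and Cyp2b9 with 11 arrays was the only member called in either fit. The median over 23 conjugation enzymes was 0.24 with 12 arrays and 0.12 with 11, and 7 members had positive interactions at an unadjusted p under 0.05 in each fit, with 0 negative. Over all genes 5.62% and 7.11% had such a p, more of them positive than negative in both fits. Gstm4, a glutathione transferase of the mu class, read 6.51, 5.85 and 5.93 in Lats2-CKO on the normal diet and 6.99, 7.04 and 6.84 on cholesterol. Wild-type livers read 6.73, 6.67 and 6.83 and then 6.79, 6.34 and 6.27, so the difference ran upward in Lats2-CKO and slightly downward in wild type. Its interaction was 1.14 ± 0.25 with 12 arrays and 1.09 ± 0.28 with 11 (limma adjusted p = 0.71 and 0.476). Gstm3 read 5.71, 6.48 and 5.0 in Lats2-CKO on the normal diet and 9.42, 10.50 and 9.54 on cholesterol, and in wild type 7.03, 6.58 and 10.14 and then 8.89, 9.18 and 8.65. Its interaction was 3.10 ± 1.08 and 1.98 ± 0.56. Mu-class genes are close in sequence, so the values of single members are uncertain. Of 26 cytochrome P450 genes, the median was 0.31 and 0.11, and Cyp2c55 had the largest interaction with 12 arrays, 3.30 ± 1.24, against 1.96 ± 0.52 with 11. With 11 arrays the largest of the list in size was that of Cyp2b9, -3.49, in the opposite direction. Cbr1, a carbonyl reductase under NRF2 control, had 1.51 ± 0.32 and 1.61 ± 0.34 (limma adjusted p = 0.71 and 0.373).

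Genes of fatty acid oxidation and synthesis had more positive than negative interactions in both fits, and none passed. Acot2, a mitochondrial acyl-CoA thioesterase under PPAR alpha, read 8.15, 8.25 and 8.43 in wild type on the normal diet and 6.85, 6.42 and 6.56 on cholesterol. In Lats2-CKO it read 6.34, 6.71 and 7.71 and then 6.46, 7.66 and 7.22. The wild-type diet groups were separate while those of Lats2-CKO overlapped, and the interaction was 1.86 ± 0.49 with 12 arrays and 1.78 ± 0.54 with 11 (limma adjusted p = 0.744 and 0.562). Acot1, its cytosolic relative and close in sequence, had 1.44 ± 0.39 and 1.41 ± 0.43, and Vnn1, a pantetheinase, 1.08 ± 0.32 and 1.11 ± 0.36. Of 22 oxidation genes, 14 were positive with 12 arrays and 15 with 11, and 5 positive and 1 negative members had an unadjusted p under 0.05 in each, beside 5.62% and 7.11% of all genes. Of 20 synthesis genes, 17 were positive in both fits, with medians of 0.25 and 0.21. Over all genes, 50.8% and 52.5% were positive.

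Hippo pathway genes had small interactions. Lats2 itself, the targeted gene, read 5.15, 5.14 and 5.69 in wild type on the normal diet, 4.37, 4.76 and 4.79 in Lats2-CKO, and on the high-cholesterol diet 5.12, 5.71 and 5.97 against 4.62, 4.89 and 4.99. All Lats2-CKO arrays lay below all wild-type arrays, and the interaction was -0.08 ± 0.32 with 12 arrays and -0.26 ± 0.31 with 11. The 6 Lats2-CKO arrays still gave signal, and the labels do not say whether the probes lie in the deleted part. The 20 measured pathway genes ran from -0.34 to 0.30 with 12 arrays, and no member had an unadjusted p under 0.05 in either fit. Lats1, the sister kinase, had -0.12 ± 0.15 and -0.10 ± 0.16. Yap1 had -0.17 ± 0.28 and -0.08 ± 0.30, and Wwtr1, which encodes TAZ, 0.05 ± 0.31 and -0.18 ± 0.26. Among 21 YAP and TAZ targets, the median was -0.01 and -0.04. Ccn1, a matricellular YAP target also called CYR61, read 7.07, 6.0 and 5.64 in wild type on the normal diet and 5.56, 6.12 and 4.44 on cholesterol. In Lats2-CKO it read 3.67, 3.59 and 3.89 and then 5.17, 3.71 and 4.86. The normal-diet genotypes were apart and the high-cholesterol ones overlapped, and its interaction was 1.72 ± 0.69 and 2.02 ± 0.71, neither of which passed (limma adjusted p = 0.832 and 0.607). Ccn2, another such target, had -0.10 ± 0.53 and -0.23 ± 0.57.

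Further lists had members with wider or smaller differences and none called. Among heat shock chaperones, the median was -0.29 with 12 arrays and 0.03 with 11. Hspa1b, an inducible heat shock protein nearly identical to Hspa1a and so uncertain, had 3.63 ± 1.53 and 4.26 ± 1.58, and its cochaperone Bag3 had 1.12 ± 0.57 and 1.59 ± 0.45. Hspa4l, of the same family, had -0.85 ± 0.34 and -0.66 ± 0.33. Hal, the periportal enzyme that begins histidine breakdown, read 10.14, 9.36 and 9.64 in Lats2-CKO on the normal diet and 11.12, 11.29 and 11.13 on cholesterol. Wild-type livers read 10.42, 10.64 and 11.03 and then 10.97, 10.81 and 11.31, and its interaction was 1.13 ± 0.30 and 0.96 ± 0.29 (limma adjusted p = 0.744 and 0.562). The Lats2-CKO normal-diet livers were again the low group. Over 12 periportal genes the median was 0.29 and 0.28, while over 17 pericentral genes it was -0.10 and 0.16. Apoc2, the activator of lipoprotein lipase, read 8.81, 8.59 and 8.62 in Lats2-CKO on the normal diet and 8.86, 8.95 and 8.91 on cholesterol. In wild type it read 9.41, 9.07 and 9.19 and then 9.06, 8.57 and 8.82. The diet difference was -0.41 in wild type and 0.23 in Lats2-CKO with 12 arrays, and the interaction was 0.64 ± 0.19 and 0.66 ± 0.21. Mt1, a metal-binding metallothionein, read 8.35, 9.96 and 9.76 in Lats2-CKO on the normal diet and 5.29, 7.67 and 8.39 on cholesterol. Those groups overlapped, and its interaction was -2.59 ± 1.0 and -2.56 ± 1.10 (limma adjusted p = 0.794 and 0.673). Among 22 p53 targets the median was 0.01 and 0.02. The death receptor gene Tnfrsf10b had 0.98 ± 0.22 and 0.99 ± 0.25, with levels of 2.89 to 4.15 on all arrays. Cdkn1a, the p53 target p21, had 1.25 ± 1.14 and 1.57 ± 1.22.

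Markers of other cell types were compared as well, because in whole liver fewer cells of a type and less RNA per cell cannot be told apart. No marker was called. All 10 B cell markers had negative interactions in both fits, with medians of -0.30 and -0.28. The list's mean level was 3.31 to 4.82 in the wild-type high-cholesterol group and 3.29 to 3.51 in the other 3, and the top value came from 1 array. The 12 stellate cell markers had medians of -0.37 and -0.35, with 11 and 9 negative, and ranged in level from 5.86 to 6.53. Of the 6 adipocyte markers 5 were negative, led by Fabp4, a fatty acid carrier, at -2.46 ± 0.88 and -2.61 ± 0.96. The mean level of the adipocyte list was highest in the Lats2-CKO normal-diet livers, 4.46 to 5.61 against 3.71 to 4.40 in the other groups. Only 3 of its 6 markers had a mean above the 30th percentile. Fabp4 read 7.09, 8.05 and 9.97 in that group. Cidec, a marker also listed among lipid droplet proteins, read 8.07, 8.82 and 9.18 there. In wild type on the normal diet Cidec read 6.62 to 7.43. The part of adipocyte RNA in genes high in the same group, Capn8 among them, was not tested. The 18 macrophage markers had medians of 0.03 and 0.01, and the 9 markers of lipid-associated macrophages -0.17 and -0.56. The level of the latter list ran from 4.61 to 6.03 in wild type on the normal diet, with the highest value on the third array. Circadian clock genes had a median of -0.41 and -0.29 over 15 genes, with Nr1d1, a repressor of the clock, at 0.86 ± 0.27 and 0.64 ± 0.21. The hour of collection was not given in the sources used here, and its part in these values was not tested.

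**Figure D5:**
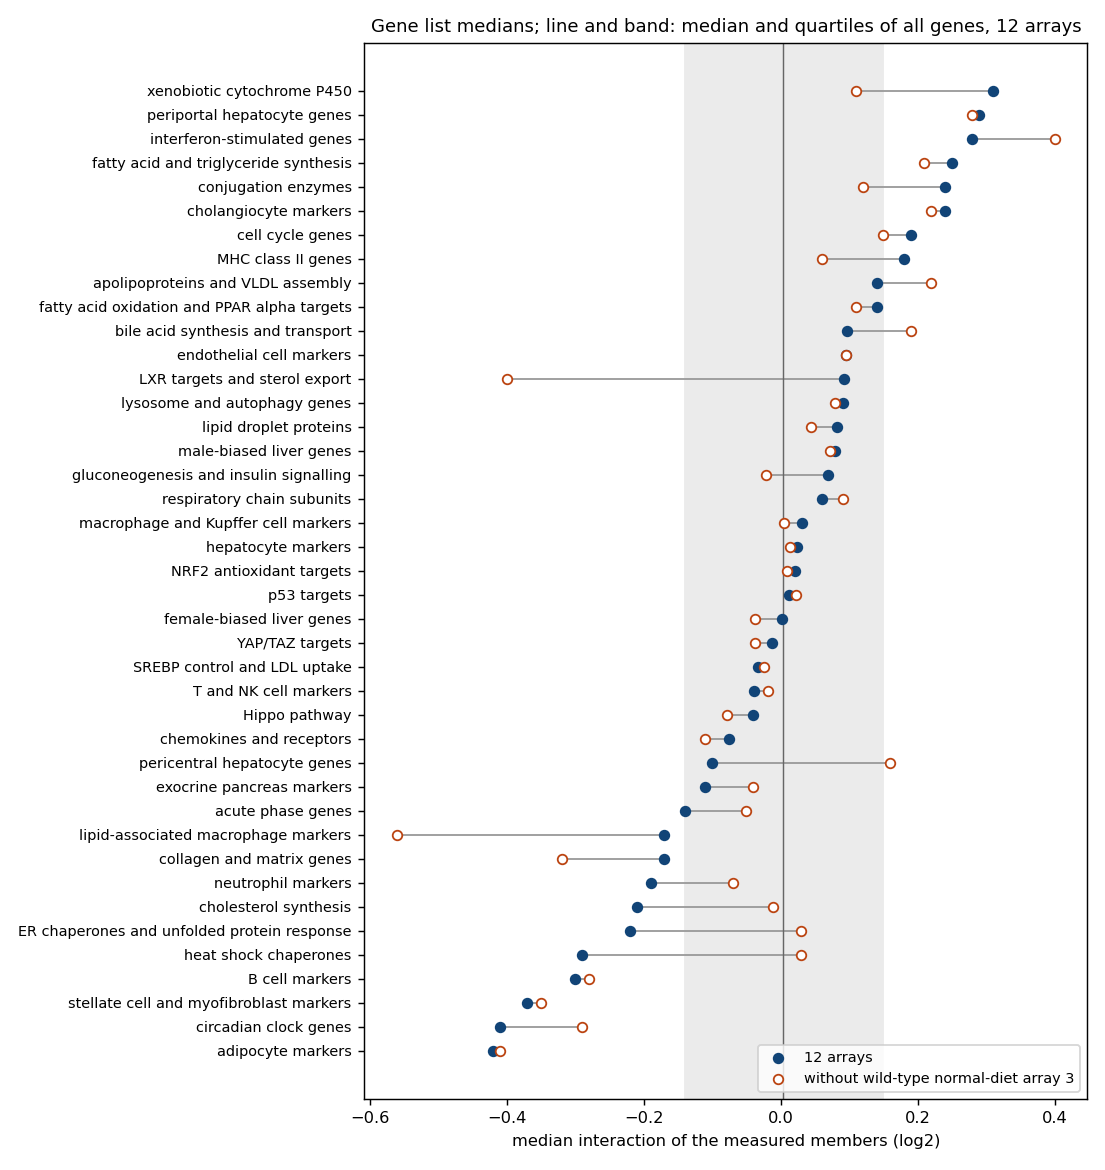
Median interaction (x axis, log2) of the measured members of each gene list with at least 5 of them (y axis), with 12 arrays (filled) and 11 (open). The line and band are the median and quartiles of all genes with 12 arrays, 0.0041 and -0.14 to 0.15; without the third wild-type normal-diet array the LXR target list moves from 0.09 to -0.40 and the heat shock list from -0.29 to 0.03.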

How the data were processed

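Analyses began from the log2 values that the authors deposited, expression per probe set after RMA in Partek 6.6, per the submitters' processing notes; its settings, and whether probe sets were filtered, are not stated in the labels. Of 41345 probe sets, 23521 had 1 gene symbol, through the platform annotation and RefSeq identifiers (GRCm38.p6). The probe set with the highest mean stood for each of 22180 genes. The interaction was fitted in R 4.3.3 with limma 3.58.1 (lmFit, eBayes) on 4 group means, with Benjamini-Hochberg adjustment over all genes and a threshold of 0.05, first tested on simulated data. Errors are standard errors of that fit. The members, the third array and the 42 gene lists were chosen with earlier results of these data known. The rule named, in each fit, up to 10 called genes on each side, filled to 5 by p among genes with at least a 1.5-fold interaction (clone-named genes left out), the leading gene of each list, and 17 fixed genes where measured; the text draws on these. Dim genes, left out in 1 alternative, had a mean below the 30th percentile of all values, 3.04. Alternatives are in the closing section. Arrays give no counts, so their number limits the precision.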

Additional observations from a re-analysis of the deposited data

Results flagged for a closer look

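The interaction of Capn8 passed the test of the difference between the genotypes' diet responses, at -2.70 with 12 arrays and -2.56 with 11. The interaction of Cyp2b9 passed it with 11 arrays only, at -3.49.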

How the results depend on the processing

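With 12 arrays 1 gene was called and 14 of 23 alternatives gave the same count; none was called without moderation (1152 at an unadjusted p under 0.05), 2 with a trended and robust prior, 2 with the array set as a block and 3 with dim genes left out, where Zfand4 passed. Leaving out 1 array gave 1 to 2 calls, Capn8 among them each time; Cyp2b9 joined without wild-type normal-diet replicate 3. With 11 arrays 2 genes were called. That count moved by more than 1.5-fold in 12 alternatives and did not in 10. It was 5 with a trended and robust prior, 0 without moderation (1408 at an unadjusted p under 0.05) and 1 with the array set as a block. It was also 1 over all deposited probe sets, an alternative chosen after seeing the data. Leaving out 1 more array gave 1 to 9, the highest without Lats2-CKO normal-diet replicate 1, and Capn8 kept its call in each. The replicate numbers were not taken to pair the samples in the main fits, since 7 of 18 same-numbered pairs had deviations correlated over 0.1. That count does not exclude structure by number. All 18 correlations were above 0 (0.002 to 0.176, median 0.074, against -0.037 for other pairs). In 25 of 36 comparisons of an array with another group, the best correlated array had the same number. For 4 of 12 arrays this held in every other group. Every replicate 1 array lay in the higher array set and every replicate 3 array in the lower. The replicate block gave 1 call with 12 arrays and 0 with 11 (limma adjusted p = 0.0941 for Capn8 and 0.106 for Cyp2b9; 1678 at an unadjusted p under 0.05). Some uncalled interactions near zero changed sign. With array weights and 12 arrays Cyp7a1 was 1.32, Hspa5 0.16 and Srebf2 0.14; Srebf2 was 0.0097 after quantile normalisation again, Ccn2 0.0075 with the mean of its probe sets, and Srebf1 0.16 with the array set block and 11 arrays. Over the fits that left out 1 array of 12, Abcg5 ran from -0.12 to 0.93, Ccn2 from -0.57 to 0.21, Cyp7a1 from -1.61 to 1.83, Hspa5 from -0.35 to 0.43, Lats2 from -0.32 to 0.10, Slc4a1 from -0.57 to 0.06, Srebf1 from -0.16 to 0.91, Srebf2 from -0.39 to 0.35, Stard4 from -1.46 to 0.25, Wwtr1 from -0.18 to 0.20 and Yap1 from -0.33 to 0.064. Over those that left out 1 of 11, Abcg5 ran from -0.28 to 0.039, Ccn2 from -0.70 to 0.14, Insig1 from -0.56 to 0.33, Slc4a1 from -0.57 to 0.059, Srebf1 from -0.48 to 0.59, Stard4 from -1.13 to 0.58 and Yap1 from -0.25 to 0.15. The cause of these changes was not tested.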

Other observations

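Of the probe sets with several symbols or none, 0 passed at an adjusted p of 0.05 in limma in either fit, when all 41345 deposited probe sets were tested together. That test held 2033 probe sets with an unadjusted p under 0.05 with 12 arrays and 2616 with 11.

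A few large interactions had wide errors and did not pass in either fit as planned. The genes that follow were chosen after their values were seen. Moxd1, a monooxygenase-like protein, read 10.03, 9.42 and 9.49 in Lats2-CKO on the normal diet, 7.12, 3.22 and 2.98 in wild type on the normal diet, and 2.91 to 5.01 on the high-cholesterol diet. Its interaction was -4.48 ± 1.27 with 12 arrays and -3.75 ± 1.22 with 11 (limma adjusted p = 0.752 and 0.582). Moxd1 passed in the 12-array alternative without wild-type normal-diet replicate 1. Prelid2, a protein of the PRELI family, read 6.67, 6.13 and 6.55 in Lats2-CKO on the high-cholesterol diet, while 8 of the other arrays read 3.5 to 4.23 and 1 read 6.21. Bcl6, a transcriptional repressor, read 8.56, 8.5 and 7.82 in wild type on the normal diet and 5.34 to 5.85 in Lats2-CKO, with 5.72 to 8.04 and 6.18 to 7.31 on the high-cholesterol diet. The interaction of Prelid2 was 3.11 ± 0.70 with 12 arrays and 3.52 ± 0.67 with 11 (limma adjusted p = 0.71 and 0.293). That of Bcl6 was 2.73 ± 0.75 and 2.97 ± 0.80 (limma adjusted p = 0.745 and 0.513).

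The interferon-stimulated genes had a median interaction of 0.28 with 12 arrays and 0.40 with 11, with 17 and 18 of 22 positive. The second Lats2-CKO high-cholesterol array was 1.54 above the list's mean over arrays, and the other 11 arrays lay between -0.48 and 0.14. Igtp, a guanosine triphosphatase induced by interferon, had the largest value at 1.38 and 1.99.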
